A study of Mus musculus with 14 samples.

Results

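The Schlafen genes form a gene family that is arranged as a cluster on mouse chromosome 11. The 7 members described here (Slfn1, Slfn2, Slfn3, Slfn4, Slfn5, Slfn8 and Slfn9) were taken from the expression table by gene symbol, and they make up 7 of its 46517 gene rows. The family itself was selected on values of this table, with earlier results on the difference between the 2 tumour models known. The members' levels in those models are therefore given as a description and without a test. The members are tested only among tumours of 1 model, in comparisons other than that difference. Whether values within that model also entered the choice is not known. Neighbouring genes and pathway lists are tested between the models in the fit across all genes, and since the lists were drawn up with earlier results known, their counts are read beside the share of all genes called.

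Schlafen proteins share a domain that cuts or binds RNA, and the longer members also carry a helicase-like part. Type I interferons induce many members in immune cells and fibroblasts, through a transcription factor complex that contains IRF9 and acts on the interferon-stimulated response element. Slfn1, the founding member, and Slfn2 are short proteins studied in T cell quiescence, and loss of Slfn2 function makes T cells and monocytes fail under activation. Slfn3 and Slfn4 are of intermediate length, and Slfn4 is known from myeloid cells. Slfn5, Slfn8 and Slfn9 belong to the long group, which in humans includes SLFN11. SLFN11 is known in small cell lung cancer because its level goes with the response to drugs that damage replicating DNA, and because EZH2 can silence it. Mice have no direct counterpart of SLFN11, and Slfn8 and Slfn9 are among its closest relatives.

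RNA-seq was made from 14 untreated lung tumours of mice with engineered small cell lung cancer. All mice carried floxed Rb1 and floxed Trp53, both fl/fl, and tumours were started with an adenovirus that makes Cre recombinase from the Cgrp promoter (Ad-Cgrp-Cre), a promoter active in neuroendocrine cells. RPM tumours (n = 11) also carried a Cre-activated Myc T58A allele (LSL-Myc T58A), in 9 tumours as LSL/LSL and in 2 as LSL/+ (replicates 2 and 4). RPR2 tumours (n = 3) carried floxed p130, encoded by Rbl2, also fl/fl, and no Myc allele. Tumours were cut out by eye and kept fresh or flash frozen, so each library holds all cells of the piece. The labels name no strain, age or sex. The labels do not state that each tumour came from its own mouse, and RPM replicates 6 and 7, and replicates 10 and 11, share a number in their titles. All p-values therefore measure the spread between these samples only. The submission codes in the labels differ between RPM and RPR2, so model and submission cannot be told apart.

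The values are FPKM, fragments per kilobase of transcript and per fixed number of mapped reads, which can be compared between genes because they are per length. The table gives no read counts, and steps between its lowest values correspond to about 17.3 to 22.7 M reads per library. At that depth 3 reads on a 2 kb transcript equal 0.0661 to 0.0865 FPKM, so member values near 0.1 rest on a few reads. RPR2 replicate 3 stood apart from its label. The mean level of 10 neuroendocrine markers was 0.92 in it on the log2(FPKM + 1) scale, against 7.54 and 7.70 in RPR2 replicates 1 and 2 and 3.77 to 6.11 in RPM. Its alveolar type 2 markers, the surfactant genes of normal lung, had a mean of 10.7, against 6.20 and 6.86 in the other RPR2 tumours and 0.85 to 5.38 in RPM. Its correlations with the other RPR2 libraries across genes were 0.889 and 0.898, against 0.984 between those. Member values, list counts and the named calls that it changes are given with and without it.

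All members lie on chromosome 11 in mm10 (GRCm38), between positions 82951349 and 83215154. From the left they are Slfn5 (ENSMUSG00000054404, from 82951349 to 82964840), Slfn9 (ENSMUSG00000069793, from 82978390 to 82991830), Slfn8 (ENSMUSG00000035208, from 83002158 to 83020810) and Slfn2 (ENSMUSG00000072620, from 83065112 to 83070678). Then follow Slfn1 (ENSMUSG00000078763, from 83116849 to 83122670), Slfn4 (ENSMUSG00000000204, from 83175186 to 83190216) and Slfn3 (ENSMUSG00000018986, from 83191330 to 83215154). Slfn9 and Slfn8 are read from the minus strand and the other 5 from the plus strand. RefSeq start sites on GRCm38.p6 matched all 7 members, with 8 windows because Slfn8 has 2 starts. Each window runs from 250 bases before the start to 50 bases after it. Both strands were searched for the interferon-stimulated response element (GAAANNGAAA) and the Myc E-box (CACGTG), which do not overlap in these windows. The windows of Slfn9, Slfn8 and Slfn5 are shown because they hold the response element, and that of Slfn2, the highest member in RPM, because it does not. Sequences run 5′ to 3′ on the gene's own strand, and capitals mark the match. The windows are chr11:82991781-82992080 (minus) for Slfn9, chr11:83020761-83021060 (minus) for Slfn8, chr11:82951852-82952151 (plus) for Slfn5 and chr11:83064862-83065161 (plus) for Slfn2.
Slfn9: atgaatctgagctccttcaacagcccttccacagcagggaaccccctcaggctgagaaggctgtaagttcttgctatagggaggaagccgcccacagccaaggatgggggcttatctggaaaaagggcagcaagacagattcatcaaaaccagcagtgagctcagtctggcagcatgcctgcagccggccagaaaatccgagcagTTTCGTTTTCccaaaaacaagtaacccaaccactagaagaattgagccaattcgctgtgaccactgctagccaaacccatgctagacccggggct
Slfn8: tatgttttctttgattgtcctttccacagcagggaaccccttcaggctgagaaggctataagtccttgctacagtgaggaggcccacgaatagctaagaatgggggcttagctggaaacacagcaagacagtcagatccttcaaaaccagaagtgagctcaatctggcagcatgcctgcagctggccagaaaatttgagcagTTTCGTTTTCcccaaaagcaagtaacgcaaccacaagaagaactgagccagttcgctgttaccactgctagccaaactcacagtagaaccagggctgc
Slfn5: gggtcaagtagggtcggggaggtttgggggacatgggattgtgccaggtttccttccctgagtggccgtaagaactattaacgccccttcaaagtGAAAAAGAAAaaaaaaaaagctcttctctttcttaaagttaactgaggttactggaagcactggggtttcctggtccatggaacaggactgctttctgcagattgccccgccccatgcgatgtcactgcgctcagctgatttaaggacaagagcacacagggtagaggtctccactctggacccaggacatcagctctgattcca
Slfn2: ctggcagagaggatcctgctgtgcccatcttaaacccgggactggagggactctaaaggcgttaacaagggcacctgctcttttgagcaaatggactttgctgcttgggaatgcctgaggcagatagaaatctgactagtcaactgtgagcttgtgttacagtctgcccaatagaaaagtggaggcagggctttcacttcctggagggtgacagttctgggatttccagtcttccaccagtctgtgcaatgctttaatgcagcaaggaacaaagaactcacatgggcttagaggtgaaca
The match began at position -45 from the start site in Slfn9 and at -48 in the Slfn8 window shown, with the same 10 letters in both. From the other Slfn8 start the same match was at -136. In Slfn5 the match lay at -155, at the head of a run of A bases. The 4 windows with a match were those of Slfn5, Slfn9 and both Slfn8 starts, and Slfn1, Slfn2, Slfn3 and Slfn4 had none. Of all 32851 RefSeq promoter windows of this length, 3.44% held the element. The E-box was in 0 of the 8 member windows, against 7.15% of all windows. A match is a description of letters, and binding was not measured. Aligned end to end, the Slfn8 and Slfn9 windows were the same at 80.5% of columns, against 41.9% to 49.4% for every other pair of members.

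Slfn9, a long member, had the widest gap between the models. It stood at 65.07, 54.50 and 5.77 FPKM in RPR2 replicates 1, 2 and 3. In the 11 RPM tumours its lowest value was 0.23, its median 1.27 and its highest 3.70. The groups did not overlap, and even the RPR2 library without neuroendocrine markers lay above every RPM tumour. The mean was 1.45 ± 1.01 FPKM (SD, n = 11) in RPM, and the RPR2 mean was 28.8 times that level. Without RPR2 replicate 3 the ratio of means was 41.2, and replicate 3 alone was 3.97 times the RPM mean. On the log2(FPKM + 1) scale, which understates the change of low genes, the difference of RPM minus RPR2 was -3.68 (SE 0.55), or -4.73 without RPR2 replicate 3.

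Slfn8 is the neighbour of Slfn9 and its closest relative among the 7 members. It was at 4.99 and 3.16 FPKM in RPR2 replicates 1 and 2 and at 0.16 in replicate 3. RPM tumours ran from 0.01 to 0.34 with a median of 0.17 (mean 0.174 ± 0.114, SD, n = 11). RPR2 replicates 1 and 2 lay above all RPM tumours, and replicate 3 lay inside the RPM range. The ratio of means was 16.0, and 23.5 without replicate 3. Slfn8 reached 1 FPKM in 2 libraries only, which is too few for the fit across genes. Its log2 difference was -1.39, and -2.09 without replicate 3. Slfn10-ps, the pseudogene beside Slfn8, had the same order of libraries at the top, with 1.78 and 1.06 FPKM in RPR2 replicates 1 and 2, 0.21 in replicate 3 and 0 to 0.21 in RPM.

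Near-identical stretches make the division of reads between Slfn8, Slfn9 and Slfn10-ps uncertain. Of all 50-base windows in their transcripts, 14.6% in Slfn8, 11.2% in Slfn9 and 19.7% in Slfn10-ps also occur in another Schlafen gene. The 3 rows were therefore summed, a choice made after seeing the values. The sum was 71.8, 58.7 and 6.14 FPKM in RPR2 and 0.28 to 4.16 in RPM, with a log2 difference of -3.65. The sum thus kept the separation seen for Slfn9 alone.

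Slfn5, the long member at the left end of the cluster, was at 4.32 and 4.02 FPKM in RPR2 replicates 1 and 2 and at 0.30 in replicate 3. RPM tumours had a lowest value of 0.32, a median of 1.36 and a highest value of 2.41 (mean 1.45 ± 0.641, SD, n = 11). The model groups overlapped only through replicate 3, which was the lowest of all 14 libraries. The log2 difference was -0.47 (SE 0.37), and it was -1.13 without that library. Slfn5 has 0% of its 50-base windows in common with another Schlafen gene.

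Slfn2, the short member linked to T cell and monocyte quiescence, had no such gap. It was at 6.45, 3.87 and 5.65 FPKM in RPR2. RPM tumours ran from 1.13 to 6.10 with a median of 3.32 (mean 3.32 ± 1.55, SD, n = 11), and 8 of the 11 lay below all RPR2 tumours. The RPR2 mean was 1.60 times the RPM mean, the log2 difference was -0.61 (SE 0.32), and the groups overlapped. Replicate 3 did not stand apart for this gene, with a difference of -0.56 without it.

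The other 3 members were near the limit set by depth. Slfn1, the founding member, ran from 0 to 0.69 FPKM in RPM (median 0.22) and was at 0.39, 0.28 and 0.17 in RPR2. Slfn3 ran from 0.06 to 0.35 in RPM and was at 0.44, 0.28 and 0.05 in RPR2. Both overlapped widely between the models. Slfn4, the myeloid member, stayed between 0 and 0.18 FPKM across the RPM tumours. In RPR2 it was 0.24, 0.07 and 1.57, with replicate 3 above all other libraries. That library also had the highest mean level of the macrophage and monocyte markers, 4.52 on the log2(FPKM + 1) scale against 3.42 and 2.97 in the other RPR2 tumours and 2.21 to 3.59 in RPM. Their part in the Slfn4 value was not tested. Slfn14, a family gene outside the 7, was listed at 0 in all but 2 libraries, where it was at 0.06 and 0.01.

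**Figure D1:**
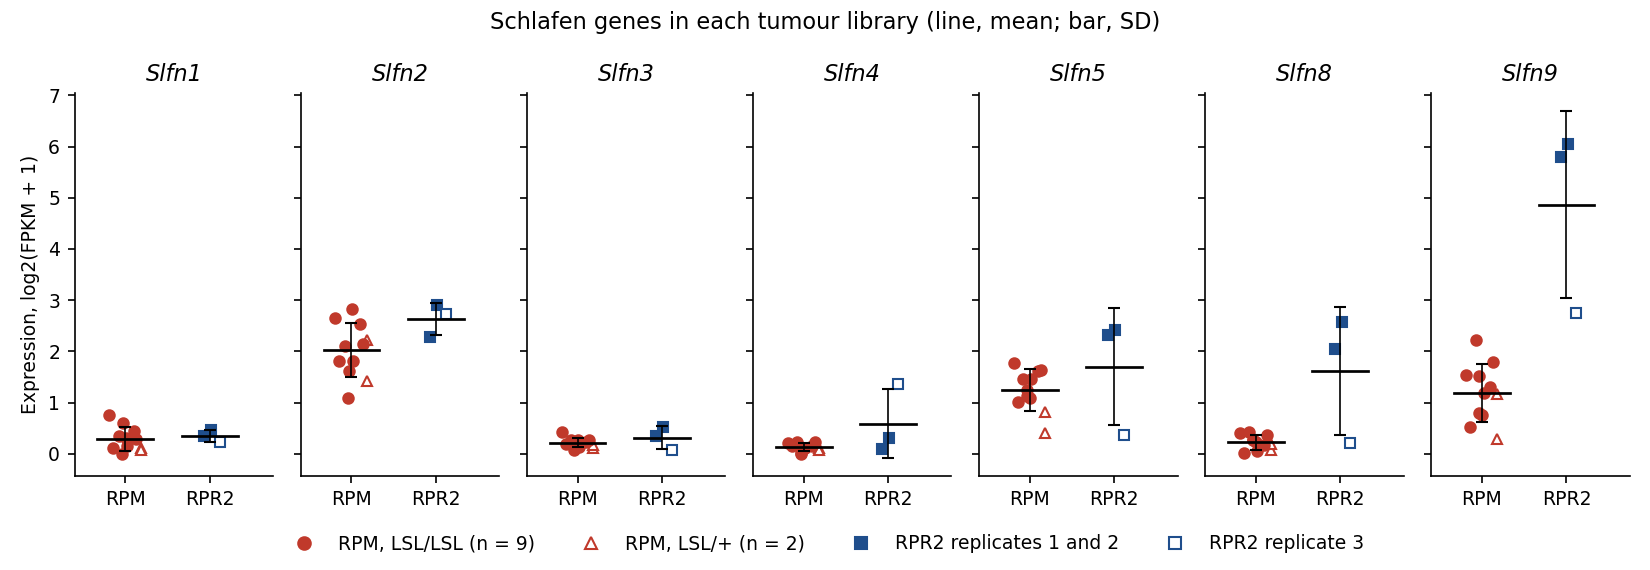
Level of each of the 7 Schlafen genes (1 panel per gene) as log2(FPKM + 1) on the vertical axis, by model on the horizontal axis. Points are single tumours (RPM n = 11, with LSL/+ as open triangles; RPR2 n = 3, with replicate 3 as an open square), horizontal lines are means and error bars are SD. Slfn9 separates the groups, at 0.23 to 3.70 FPKM in RPM against 5.77 to 65.07 in RPR2, while Slfn1, Slfn2 and Slfn3 overlap.

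Over the family, Slfn9 was the 1 member of 7 without overlap between the models, and Slfn5 and Slfn8 joined it when RPR2 replicate 3 was left out. The background was high. With limma, Benjamini-Hochberg adjustment and a threshold of 0.05, 41.2% of 15719 tested genes were called, 22.8% lower in RPM and 18.4% higher, and 13.6% were lower in RPM without any overlap. Without RPR2 replicate 3, 44.8% were called, 28.5% lower and 16.2% higher. The split between lower and higher moved with scaling, from 3586 lower and 2897 higher to 3588 and 1878 after scaling to TPM and to 2894 and 3895 after quantile normalization. The share of all genes without overlap was not computed without RPR2 replicate 3, and Slfn8 was not among the tested genes. The choice of the family used this contrast, so nothing is read from the counts of members without overlap. The RPR2 mean was above the RPM mean for 7 of 7 members, but by little for Slfn1 (0.28 against 0.244 FPKM) and Slfn3 (0.257 against 0.168). The share of all genes with a higher RPR2 mean was not computed, so nothing is read from this count either. The median log2 difference over the 7, of which 3 were tested, was -0.47. It was -0.06 over all tested genes, which leave out low genes, and -0.01 with no filter. Without RPR2 replicate 3 the median was -0.56 over the 7 and -0.22 over all tested genes.

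The make-up of the family transcript pool differed with these levels. The 7 members summed to 3.31 to 11.1 FPKM in RPM and to 81.9, 66.2 and 13.7 in RPR2. In RPM the order of the levels began with Slfn2, whose share of the sum was 33.4% to 81.1%. Slfn5 and Slfn9 followed with medians of 1.36 and 1.27 FPKM, which do not differ beyond their spread, and the other 4 members had means under 0.25 FPKM. In RPR2 replicates 1 and 2 Slfn9 held 79.5% and 82.4% of the sum and Slfn2 held 7.88% and 5.85%. In RPR2 replicate 3 the shares of Slfn9 and Slfn2 were close, at 42.2% and 41.3%, and Slfn4 held 11.5%. Slfn9 was the leading member in all RPR2 libraries, and in RPM it led in replicate 5 alone, where it was at 3.70 FPKM and Slfn2 at 3.32. In RPM replicate 8, the library with the least Slfn2, Slfn5 was in front, at 1.18 FPKM against 1.13.

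**Figure D2:**
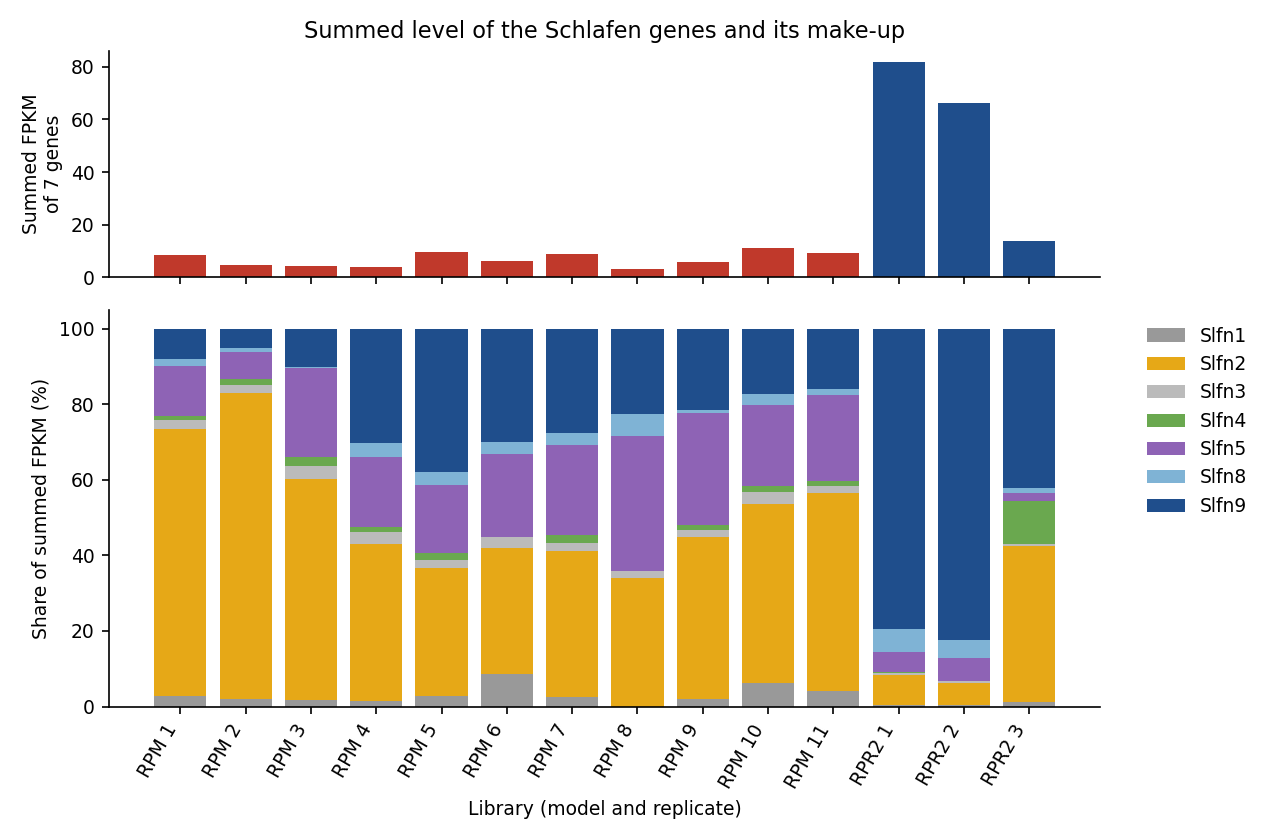
Summed FPKM of the 7 Schlafen genes per library (top, linear axis, red for RPM and blue for RPR2) and the percentage of that sum held by each gene (bottom, stacked bars, 1 colour per gene), with the 11 RPM tumours followed by the 3 RPR2 tumours. Slfn2 takes 33.4% to 81.1% of the sum in RPM, and Slfn9 takes 79.5% and 82.4% in RPR2 replicates 1 and 2.

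Of the genes around the cluster, 1 rose and 1 fell in RPM. Within 300 kb of the outer members lie 17 other protein-coding genes, and 10 of them were tested. Nle1, which acts in ribosome assembly, rose in RPM with a log2 difference of 1.55 (SE 0.27, adjusted p = 0.000366, limma with Benjamini-Hochberg adjustment). Rffl, a ubiquitin ligase, fell by 1.20 (SE 0.30, adjusted p = 0.00474, same limma fit), from 5.12, 6.37 and 3.61 FPKM in RPR2 to 1.70 ± 0.827 (SD, n = 11) in RPM. Lig3, a DNA ligase, and Rad51d, a recombination factor, differed by 0.65 and -0.52 and did not pass the test. Without RPR2 replicate 3 Rad51d also passed, at -0.97 (adjusted p = 0.00679, limma with Benjamini-Hochberg adjustment). The median over the 10 was 0.06, and -0.32 without that library. Inside the cluster the differences did not follow the distance along the chromosome in one direction. They were -0.47 for Slfn5, -3.68 for Slfn9 at 27.0 kb, -1.39 for Slfn8 at 50.8 kb and -0.61 for Slfn2 at 114 kb. Further right they were -0.06 for Slfn1 at 166 kb, -0.46 for Slfn4 at 224 kb and -0.10 for Slfn3 at 240 kb.

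**Figure D3:**
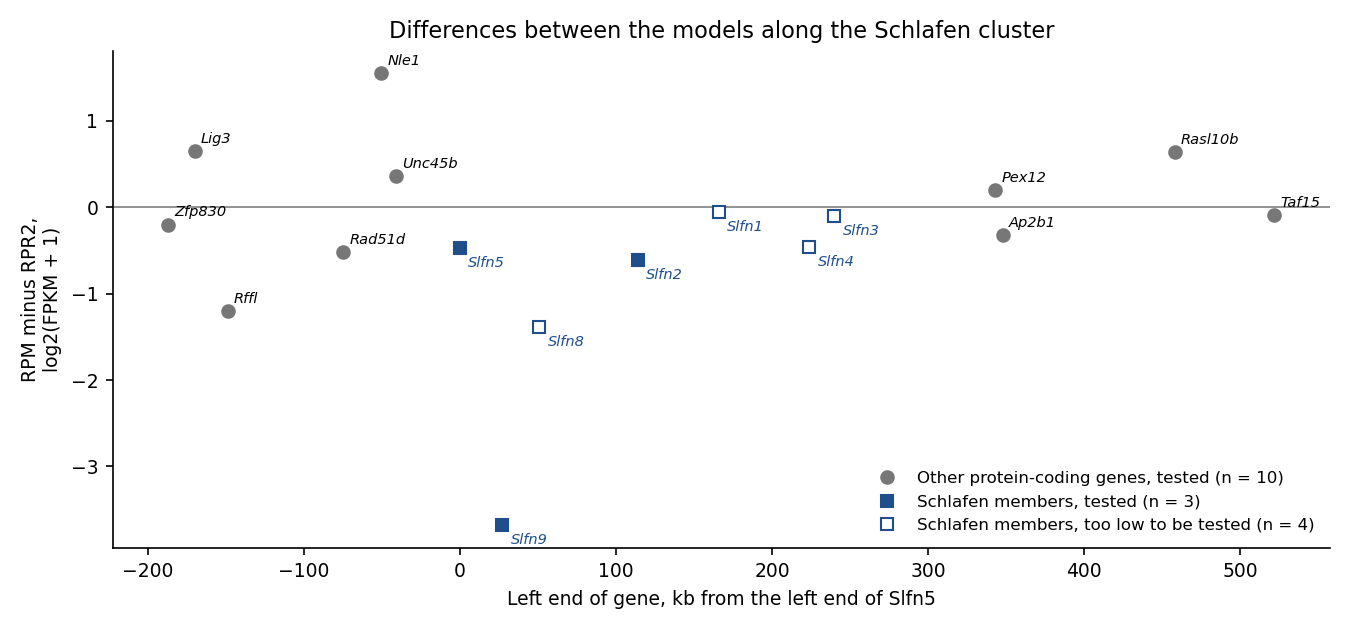
Log2 difference of RPM minus RPR2 (vertical axis) against the left end of each gene in kb from the left end of Slfn5 (horizontal axis), for the 7 members (squares, open where too low to be tested) and 10 tested neighbours (grey circles). Slfn9 at -3.68 is the lowest point and Nle1 at 1.55 the highest.

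Interferon is the known inducer of the family, so the genes of that pathway were read in the same fit. The lists were drawn up with earlier results of these data known, and the counts are no independent evidence. Of 22 genes for interferon receptors and signalling, 19 fell in RPM and 0 rose, with a median log2 difference of -1.40. Over all tested genes 22.8% fell and 18.4% rose, with a median of -0.06. Ifnlr1, a receptor chain for type III interferon, fell from 3.49, 4.59 and 6.20 FPKM in the RPR2 libraries to 0.165 ± 0.142 (SD, n = 11) in RPM (log2 difference -2.29, adjusted p = 2.94e-07, limma with Benjamini-Hochberg adjustment). Il10rb, the chain that pairs with Ifnlr1, fell from 51.77, 57.45 and 68.31 FPKM to 7.31 ± 3.21 (log2 difference -2.94). Irf9, the DNA-binding part of the complex that acts on the response element, fell from 25.12, 32.81 and 19.50 to 5.72 ± 1.04 (log2 difference -1.98). For these 3 genes RPR2 replicate 3 stood with the other RPR2 tumours, unlike for Slfn5 and Slfn8.

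Of 42 interferon target genes 39 were tested, and 35 fell in RPM and 0 rose, with a median difference of -2.36. Without RPR2 replicate 3 the counts were 37 targets and 19 signalling genes, beside 28.5% of all tested genes called lower. Samd9l, an antiviral factor that cuts tRNA, fell from 19.62, 25.57 and 26.55 FPKM to 1.21 ± 0.669 (log2 difference -3.54, adjusted p = 3.45e-07, limma with Benjamini-Hochberg adjustment). Uba7, the activating enzyme for ISG15, fell by 2.71, and Parp9, an ADP-ribosylation factor of the pathway, by 2.61 on the log2 scale. The mean level of the targets was 0.99 to 2.38 on the log2(FPKM + 1) scale in RPM and 4.35, 4.24 and 2.51 in RPR2. RPR2 replicate 3 was thus the lowest RPR2 library for the targets, as for Slfn5, Slfn8 and Slfn9.

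Cell type markers were read beside these counts, since Schlafen genes are also expressed by immune and other stromal cells. In bulk tissue, fewer cells of a type and less RNA per cell cannot be told apart. Levels are list means on the log2(FPKM + 1) scale. The endothelial markers stood at 3.99, 3.88 and 2.61 in RPR2 and 2.07 to 3.37 in RPM. The list mean of replicate 3 thus lay inside the RPM range. Of 8 in that list, 0 rose and 2 fell in RPM. These 2 were Vwf, von Willebrand factor, at 237.81, 329.37 and 28.32 FPKM in RPR2 against 5.63 ± 4.07 (SD, n = 11) in RPM, and Tek, the angiopoietin receptor. The others were not called, with log2 differences of -0.15 for Pecam1 and 0.35 for Emcn among them. B cell markers stood at 2.40, 1.65 and 1.14 in RPR2 and 0.42 to 2.24 in RPM. Of 7 in that list 4 were tested, and 1 fell, or 2 without RPR2 replicate 3. T and NK cell markers stood at 0.99, 0.79 and 0.84 in RPR2 and 0.46 to 0.95 in RPM, where 5 of 16 were tested, 1 rose and 2 fell. Macrophage and monocyte markers stood at 3.42, 2.97 and 4.52 in RPR2 and 2.21 to 3.59 in RPM, where 13 of 14 were tested, 0 rose and 2 fell. The 2 that fell were Chil3, a chitinase-like protein, at 62.06, 26.17 and 749.7 FPKM in RPR2, and Ly6c2, a monocyte surface antigen, at 1.62, 4.53 and 33.54, both highest in replicate 3. Neutrophil markers stood at 0.67, 0.83 and 1.44 in RPR2 and 0.18 to 1.57 in RPM, and 0 of 5 tested were called. No marker of these 5 lists was at 0 in every library. Fibroblast markers went the other way, at 4.13, 3.68 and 3.36 in RPR2 and 3.58 to 4.87 in RPM. Of 8 in that list, 5 rose and 1 fell in RPM (median difference 1.18), or 4 and 1 without RPR2 replicate 3. Alveolar type 2 markers fell in RPM for 8 of 8, or 4 of 8 without RPR2 replicate 3. The part of these cell types in the Schlafen levels was not tested.

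The processes in which Schlafen proteins act were read the same way. Beside them stand the shares of all tested genes, 18.4% higher and 22.8% lower in RPM. Of 12 genes for tRNA cleavage and protection, 6 rose and 2 fell in RPM (median 0.34), or 4 and 1 without RPR2 replicate 3 (median 0.31). Elac2, which trims tRNA ends, rose by 1.53 and Nsun2, which methylates tRNA, by 1.57, while Rnh1, the ribonuclease inhibitor, fell by 1.45. Ang, the ribonuclease angiogenin, was at 1.17, 1.43 and 51.66 FPKM in RPR2, and its call was lost without replicate 3 (difference -0.67, adjusted p = 0.133, limma with Benjamini-Hochberg adjustment). Of 18 replication stress genes, the setting of human SLFN11, 4 rose and 0 fell (median 0.26). The share that rose was near that of all genes, and the share that fell was under it. Without RPR2 replicate 3 the counts were 3 and 3 (median 0.12). Cdt1, the licensing factor, rose by 1.07 and Parp1 by 0.83. The list mean was 5.02 to 5.40 in RPM and 5.23, 5.15 and 4.48 in RPR2, where replicate 3 alone lay outside the RPM range. Of 11 genes of the polycomb complex PRC2, 2 rose and 2 fell (median -0.11), both near the shares of all genes. Without RPR2 replicate 3 the PRC2 counts were 1 and 4 (median -0.39). Ezh2, the methyltransferase known to silence human SLFN11, rose from 56.46, 51.88 and 45.95 FPKM in the RPR2 libraries to 92.6 ± 15.3 in RPM. Phf1, an accessory subunit, fell by 1.92 and Ezh1, the other methyltransferase of the complex, by 1.35.

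The number of Myc T58A alleles was a contrast other than that between the models. Whether the choice of the family also used it is not known. Slfn5 was at 1.01 to 2.41 FPKM in the 9 LSL/LSL tumours (median 1.76, mean 1.65 ± 0.50, SD) and at 0.32 and 0.76 in the 2 LSL/+ tumours. All 9 LSL/LSL tumours lay above both LSL/+ tumours. The share of all genes that separate in this way was not computed, so this is not read as particular to Slfn5. The log2 difference was 0.77 (SE 0.25), with p = 0.00871 and an adjusted p = 0.239 in limma with Benjamini-Hochberg adjustment over 14862 genes, so it did not pass the test. Slfn9 was at 0.43 to 3.70 FPKM in LSL/LSL (median 1.46) and at 0.23 and 1.24 in LSL/+, with a log2 difference of 0.56 (SE 0.41, adjusted p = 0.450, limma). Slfn2 was at 1.13 to 6.10 and at 3.70 and 1.70, with a difference of 0.24 (SE 0.40, adjusted p = 0.755, limma). With 2 LSL/+ tumours each decides much of these values: without RPM replicate 2 the differences were 0.57 for Slfn5, 0.13 for Slfn9 and 0.64 for Slfn2, and without replicate 4 they were 0.98, 0.99 and -0.16, none past the test. Slfn1, Slfn3, Slfn4 and Slfn8 were too low to be tested. In this contrast 0 of 3 tested members were called, beside 1 of all genes (0.00673%), and 2569 genes had an unadjusted p under 0.05. The median difference of all genes was 0.16, so the members' differences are read against that.

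Among the 11 RPM tumours, 1 pair of the 3 testable members varied together. Slfn5 and Slfn9 had Pearson's r = 0.740 (permutation p = 0.00933, adjusted p = 0.0280 over 3 pairs, two-sided) and Spearman's rho = 0.825 (permutation adjusted p = 0.00816). Without RPM replicates 2 and 10, the tumours farthest from the median of Slfn5, r was 0.621, and within the 9 LSL/LSL tumours it was 0.699 (exact permutation p = 0.0390). Slfn2 had r = 0.306 with Slfn5 and r = 0.099 with Slfn9, with permutation adjusted p = 0.543 and 0.770. The values of a library share 1 scaling, and after scaling to TPM the correlations were 0.797, 0.491 and 0.294. These pairs were added after the values had been seen, and they were not rerun with tumours that share a title number averaged.

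The members were then compared with 4 list means across the same tumours, in 12 relations, with two-sided permutation p-values adjusted by Benjamini-Hochberg over the 12. Slfn5 rose with the interferon targets, with r = 0.825 (permutation p = 0.00161, adjusted p = 0.0141), rho = 0.875 (adjusted p = 0.00444) and r = 0.756 without RPM replicates 4 and 10. Slfn2 rose with the macrophage and monocyte markers, with r = 0.821 (permutation p = 0.00235, adjusted p = 0.0141), rho = 0.882 (adjusted p = 0.00444) and r = 0.705 without RPM replicates 4 and 8. Slfn2 also rose with the neutrophil markers, with r = 0.720 (permutation p = 0.00932, adjusted p = 0.0373), rho = 0.718 (adjusted p = 0.0497) and r = 0.652 without RPM replicates 1 and 6. The other 9 relations did not pass by Pearson's r. With tumours that share a title number averaged, 3 relations passed, each close to the threshold. In the order above, r was then 0.814, 0.809 and 0.771 (permutation adjusted p = 0.0459, 0.0459 and 0.0488). Within the 9 LSL/LSL tumours r was 0.862 for Slfn5 with the interferon targets, 0.844 for Slfn2 with the macrophage markers and 0.730 for Slfn2 with the neutrophil markers (exact permutation p = 0.00422, 0.00363 and 0.0240).

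The target means left a gap between 2 sets of RPM tumours. The mean was 0.99 to 1.08 in RPM replicates 2, 3, 4, 6 and 8, which include both LSL/+ tumours, and 1.54 to 2.38 in the other 6. Within those 6, a check added after seeing the values, Slfn5 had r = 0.726 (exact permutation p = 0.122), Slfn9 r = 0.430 (exact permutation p = 0.393) and Slfn2 r = 0.156 (exact permutation p = 0.799). With 6 tumours the relation did not pass for any of the 3 members.

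Slfn9 with the interferon targets had r = 0.625 (permutation p = 0.0410, adjusted p = 0.0820) and rho = 0.727 (adjusted p = 0.0497), and r = 0.691 without RPM replicates 4 and 10. Slfn2 with the interferon targets had r = 0.654 and Slfn5 with the macrophage markers r = 0.663, each with a permutation adjusted p = 0.0746. Slfn5 had r = -0.062 and Slfn9 r = -0.283 with the neutrophil markers. With the T and NK cell markers r was 0.123 for Slfn2, 0.471 for Slfn5 and 0.591 for Slfn9. After scaling to TPM 8 of the 12 relations passed, among them Slfn9 with the interferon targets at r = 0.700 and Slfn2 with the interferon targets at r = 0.746 (permutation adjusted p = 0.0378 and 0.0292). The interferon target list holds no Schlafen gene. Whether the relations of Slfn2 and Slfn5 differ from each other was not tested.

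**Figure D4:**
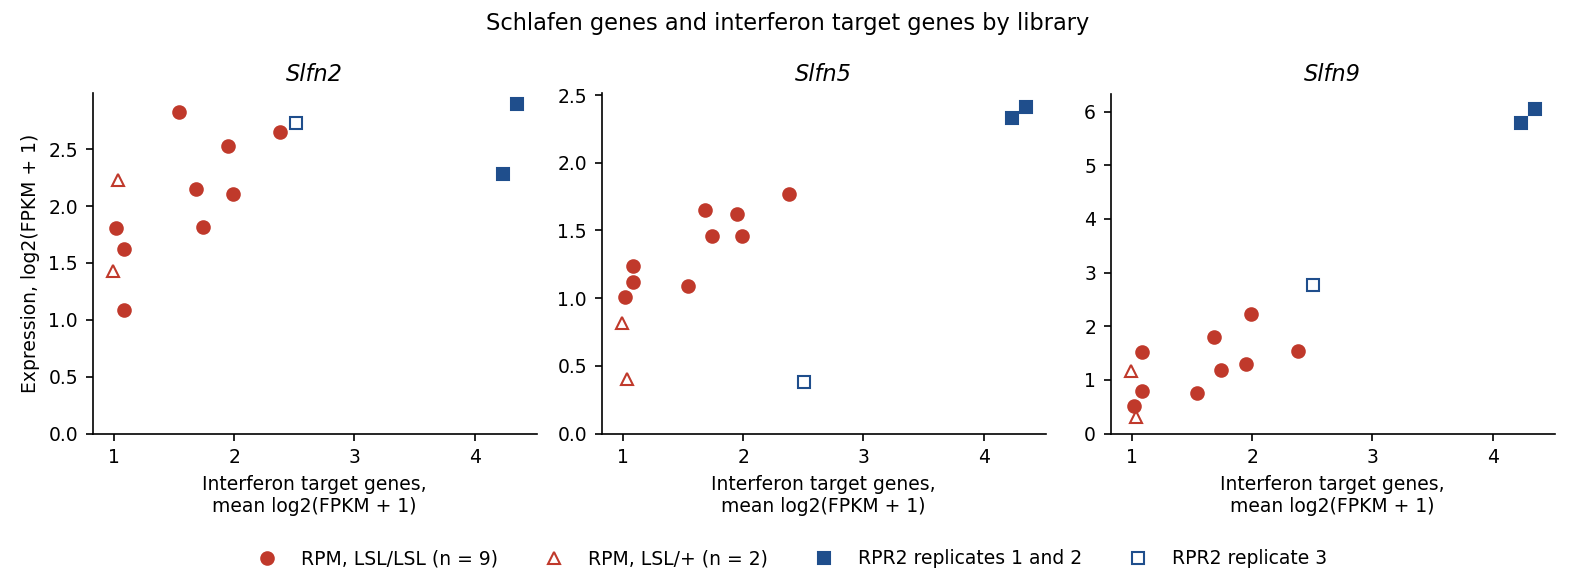
Log2(FPKM + 1) of Slfn2, Slfn5 and Slfn9 (vertical axes, 1 panel per gene) against the mean log2(FPKM + 1) of the interferon target genes (horizontal axis), with 1 point per tumour for 11 RPM and 3 RPR2 tumours. Within RPM Slfn5 follows the targets most closely (r = 0.825), and RPR2 replicates 1 and 2 lie at target means of 4.35 and 4.24.

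The genes most like each member across the 11 RPM tumours were taken from 12639 protein-coding genes by the highest Pearson r, as a description with no test. For Slfn2 they were H2-DMb1, a chain of the MHC class II loading complex (r = 0.918, rho = 0.918), Lpxn, a leukocyte adaptor (r = 0.915) and Smim1 (r = 0.908). For Slfn5 they were Farp2 (r = 0.961, rho = 0.934), Slc29a3, a nucleoside transporter (r = 0.957) and Ing3 (r = 0.957). For Slfn9 they were Yes1, a Src family kinase (r = 0.937, rho = 0.936), Ppwd1 (r = 0.930) and Tent5c, a poly(A) polymerase (r = 0.923). In RPR2, Farp2 had the pattern of Slfn5, at 13.92, 20.74 and 0.70 FPKM, and H2-DMb1 was at 14.33, 11.14 and 133.75, without the even levels of Slfn2.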

How the data were processed

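RNA-seq of 14 mouse lung tumours was read from 1 table of FPKM values that the authors deposited, with 46517 gene rows and 1 reporter row that was left out. Per the submitters' processing notes, RSEM 1.2.12, Bowtie 1.0.1 and mm10 were used; no source used here names the annotation release or the strand setting. Libraries held 12994 to 14974 genes at 1 FPKM or more, and depth was estimated from value steps assuming 50-base reads, so it limits precision only as counting error. Symbols and coordinates came from GENCODE on GRCm38 and promoters from RefSeq on GRCm38.p6. Genes with at least 1 FPKM in at least 3 libraries were fitted as log2(FPKM + 1) with limma 3.58.1 in R 4.3.3 (trend, Benjamini-Hochberg, threshold 0.05), tested on simulated data first. Correlations used 100000 permutations.

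The members and lists were chosen with earlier results of these data known. Genes named were the members and other Schlafen genes, up to 3 called genes per direction of each pathway list and up to 4 neighbours by smallest p, and 3 most alike genes per member. Alternatives were the pseudocount, filters, scaling, array weights, averaging tumours that share a title number, LSL/LSL tumours only and leaving out each library. The list counts without RPR2 replicate 3 were added after seeing the data. 1 further promoter motif was searched and is not reported here.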

Additional observations from a re-analysis of the deposited data

How the results depend on the processing

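Slfn9 was lower in RPM under all 23 settings tried, with log2 differences of -4.73 to -3.09. Slfn2 ran from -0.83 to -0.24 and Slfn5 from -1.13 to -0.11 over 22 settings each. The largest shifts for Slfn5 (-1.13) and Slfn9 (-4.73) came from leaving out RPR2 replicate 3. The median difference of all genes moved from -0.06 to -0.23 under TPM, 0.05 under median-of-ratios scaling, 0.12 under quantile normalization, -0.18 with array weights and -0.22 without RPR2 replicate 3, and the members' differences are read relative to it. Array weights raised the genes called between models from 6483 to 10867. Leaving out 1 library gave 4939 to 7036 calls, 28 to 37 interferon targets and 15 to 20 signalling genes. A mean FPKM of at least 5 left 20 called targets instead of 35, with fewer genes tested.

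In the Myc allele contrast 1 gene was called by limma. The count was 5 with a pseudocount of 0.1, 30 with no filter and 0 under TPM, quantile normalization, array weights or averaging of tumours that share a title number, where 3060, 2107, 1632 and 1899 genes had an unadjusted p under 0.05. Leaving out 1 RPM library gave 0 to 8 calls. The cause was not tested. TPM raised the relations passing from 3 to 8. Values are listed to 2 decimals, and depth limits Slfn1, Slfn3, Slfn4 and RPM Slfn8. No paired analysis was possible because the groups share no title number and the labels match no tumours between them.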
